A study of Mus musculus with 6 samples.

Results

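The 30 genes described here encode the mitochondrial machinery that burns fatty acids and makes ketone bodies. They were listed by name for that role, with earlier results of these data already known. All 30 are among the 51912 genes of the deposited liver table, and all 30 were among the 13325 that passed the filter on low values. They comprise fatty acid activation and the carnitine shuttle (5 genes), acyl-CoA dehydrogenases (6), the later steps of the beta-oxidation spiral (5), auxiliary enzymes for unsaturated chains (2), electron transfer to ubiquinone (3), ketone body enzymes (2), fuel switch and uncoupling (4) and medium-chain acyl-CoA synthetases (3). RNA was measured in livers of C57/B6 mice at 21 days of age. In the TCS group (n = 3 samples) the pups were nursed by mothers whose chow held triclosan, given in the labels as 120 ppm, through pregnancy and lactation. In the vehicle group (n = 3 samples) the mothers' chow held the DMSO and water vehicle alone, and no genetic change was part of either group. Each sample pooled RNA of 3 mice according to the methods, and which litters entered each pool is not given.

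A long-chain fatty acid is activated to its CoA ester at the outer mitochondrial membrane, passed to carnitine by CPT1A, carried through the inner membrane by the translocase SLC25A20 and returned to CoA by CPT2. Repeated rounds of dehydrogenation, hydration, dehydrogenation and thiolysis then shorten the chain, passing electrons to the respiratory chain and giving acetyl-CoA. In the liver of a suckling mouse, whose milk diet is rich in fat, part of this acetyl-CoA becomes ketone bodies for other tissues. The nuclear receptor PPARα is known to drive many of these genes in mouse liver.

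Before the results, 3 features of the samples need stating. Xist, the transcript of the inactive X chromosome, was 46.4, 1.80 and 88.3 TPM (transcripts, scaled by length, out of a fixed total that is the same in every sample) in vehicle replicates 1, 2 and 3 and 0.0144, 98.7 and 44.0 TPM in the TCS replicates, although the methods speak of male pups. The Y-linked gene Ddx3y ran the other way, from 34.7 TPM in vehicle replicate 2 and 31.9 in TCS replicate 1 to 12.2 in vehicle replicate 3 and 11.6 in TCS replicate 2. Xist is made in female cells, so the levels in vehicle replicates 1 and 3 and TCS replicates 2 and 3 are not those of all-male pools. Vehicle replicate 2 and TCS replicate 1 had the least Xist and the most Ddx3y. With the Xist level as a covariate, a fit added after seeing this, 0 of the 30 genes passed the test and 9 were higher at an unadjusted p under 0.05, where 21.4% of all genes were. Vehicle replicate 2 stood apart on the genes of interest, lying above the vehicle mean for 30 of 30 and highest of the vehicle samples for 29 of 30 (tied with replicate 3 in Acsl1), against 33.2% of all genes tested. Among PPARα targets outside mitochondrial oxidation, the same sample held the acyl-CoA thioesterase Acot1 at 60.0 TPM. The other vehicle samples held it at 8.19 and 9.84 TPM. In the TCS group, replicate 1 was the lowest sample for 28 of 30 genes (93.3%), against 55.2% of all genes tested. Vehicle replicate 2 and TCS replicate 1, the samples with the least Xist, had summed TPM of the 30 genes of 6128 and 5783. Finally, 74.8% of all genes tested were higher on average in TCS and 25.2% lower, with a median log2 fold change of 0.13 on the scale of log2(TPM + 1). The sum of 6 pancreatic acinar markers ran from 73.6 to 553 TPM in vehicle and from 1.36 to 611 TPM in TCS. Summed TPM of 10 Kupffer cell and macrophage markers was 364 to 429 in vehicle and 359 to 440 in TCS, and 6 hepatocyte markers were all lower on average in TCS, their sum lying below the vehicle range (113214, 111629 and 109900 TPM against 124970, 133710 and 129740). In bulk tissue, fewer cells of a type and less RNA per cell cannot be told apart, and the part of these differences in the results below was not tested.

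As a whole, the pathway had a higher mean level in TCS livers, but no single gene of it passed the test. The summed TPM of the 30 genes was 4989, 6128 and 5119 in vehicle and 5783, 6498 and 6836 in TCS. Vehicle replicate 2 exceeded TCS replicate 1, so the groups overlapped. The mean sum was 5412 ± 624 TPM (SD, n = 3) in vehicle and 6372 ± 537 TPM (SD, n = 3) in TCS, a ratio of 1.18. The genes thus took 0.541% of transcripts in vehicle and 0.637% in TCS. By limma's moderated test with Benjamini-Hochberg adjustment over all genes tested, 0 of 30 reached an adjusted p under 0.05 in either direction, where 0.0826% of all genes did so as higher in TCS and 0.0901% as lower. At an unadjusted p under 0.05, 11 of 30 (36.7%) were higher, against 19.5% of all genes tested, and 1 of 30 (3.33%) was lower, against 3.50%. With array weights, which give divergent samples less say, 8 of 30 passed as higher, where 7.55% of all genes did. The unadjusted count of higher genes moved with single samples. Omission of vehicle replicates 1, 2 or 3 gave 4, 21 and 4 of 30, where 13%, 15.6% and 19.3% of all genes were higher. Omission of TCS replicates 1, 2 or 3 gave 15, 5 and 4 of 30, where 21.8%, 12.3% and 11.9% of all genes were. In the fit without vehicle replicate 2, 1 of 30 was lower, where 3.37% of all genes were. Vehicle replicate 2 was the highest vehicle sample for 29 of the 30 genes, against 33.2% of all genes. Its omission therefore favours higher counts among the 30. On average 25 of the 30 were higher and 5 lower (83.3% and 16.7%, to be read against the 74.8% and 25.2% of all genes). The median log2 fold change of the 30 was 0.23, which lay 0.10 above the median of all genes. With TPM rescaled by median-of-ratios factors, which centres all genes near 0, the median of the 30 was 0.08, and 3 were higher and 4 lower at an unadjusted p under 0.05, where 8.31% and 8.97% of all genes were.

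**Figure D1:**
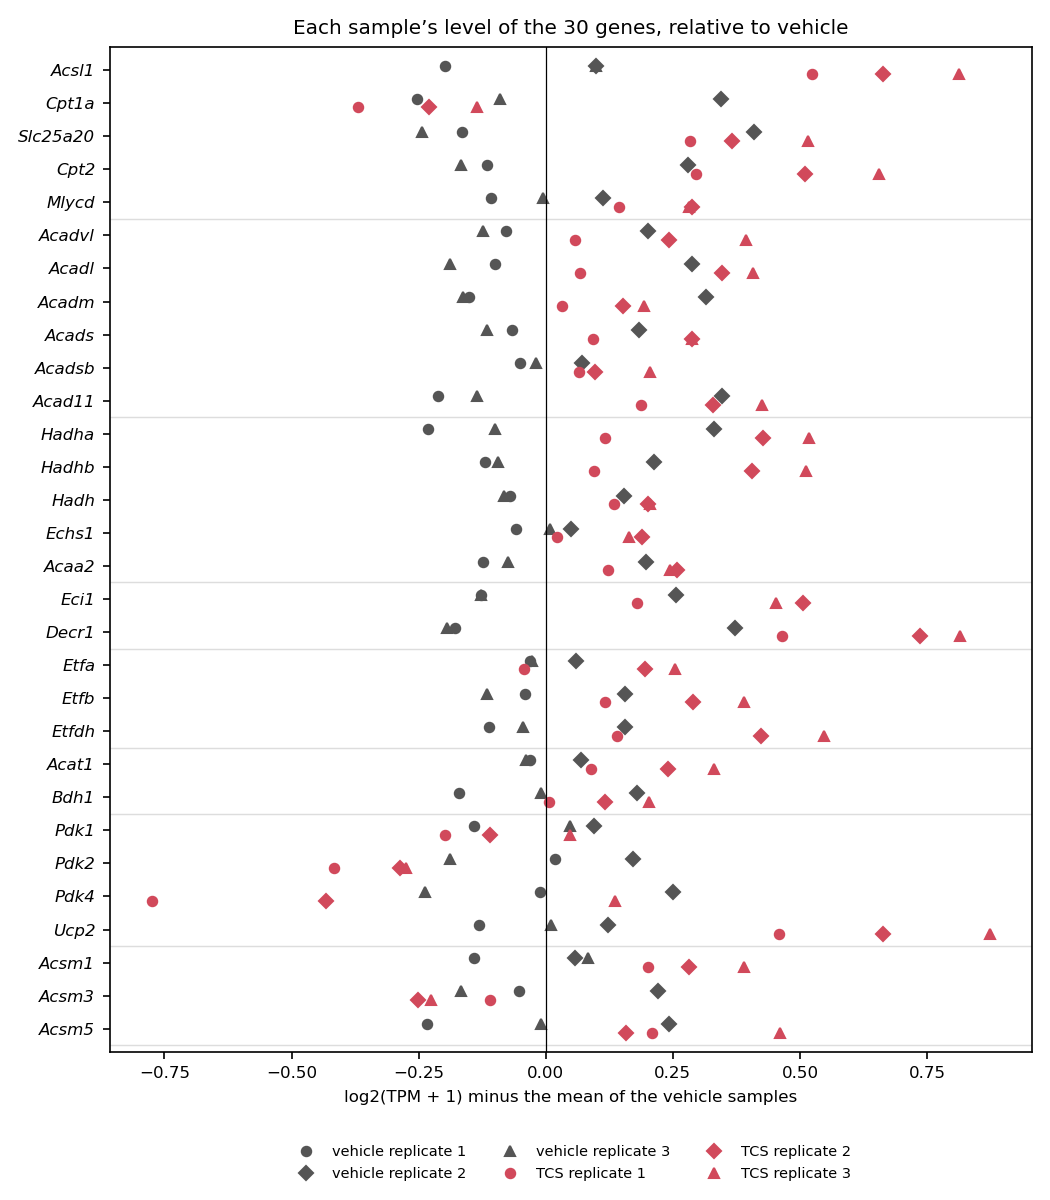
Level of each gene in each sample, as log2(TPM + 1) minus the mean of the 3 vehicle samples (x axis), with genes in order of role and grey lines between roles; grey symbols are vehicle, red symbols TCS, and the symbol shape gives the replicate. Vehicle replicate 2 (grey diamonds) lies right of the vehicle mean for all 30 genes, and its median distance is 0.19, beside 0.11 for TCS replicate 1.

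Activation and the carnitine shuttle held Acsl1, with a 1.59-fold higher mean in TCS, beside Cpt1a, whose mean was lower. Acsl1, the main long-chain acyl-CoA synthetase of liver, was at 201, 247 and 247 TPM in vehicle and at 332, 366 and 406 TPM in TCS. The groups were well apart, the lowest TCS sample standing above the highest vehicle sample. The mean was 1.59-fold higher, with a log2 fold change of 0.67 ± 0.11 (SE), an unadjusted p of 0.000842 and an adjusted p of 0.0818 by limma. Leaving out single samples moved that log2 fold change between 0.57 and 0.74. RefSeq gives Acsl1 a pair of start sites on chromosome 8, and the windows from 250 bases before to 50 bases after each start (GRCm38.p6, plus strand) are shown because this gene had the smallest unadjusted p of the 30. Capitals mark the motifs AGGTCA (a nuclear receptor core hexamer), CACGTG (an E-box) and CCAAT, each searched on both strands, so that ATTGG is CCAAT read from the other strand. The upstream window, chr8:46470787-46471086, held none of the 3, and the downstream window, chr8:46490716-46491015, held CCAAT at 2 places.
Acsl1 upstream start: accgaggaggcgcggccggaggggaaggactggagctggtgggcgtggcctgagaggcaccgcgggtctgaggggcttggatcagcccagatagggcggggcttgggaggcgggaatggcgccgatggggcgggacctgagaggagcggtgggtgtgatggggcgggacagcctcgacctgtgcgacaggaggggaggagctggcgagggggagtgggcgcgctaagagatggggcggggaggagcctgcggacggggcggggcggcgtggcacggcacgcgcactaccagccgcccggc
Acsl1 downstream start: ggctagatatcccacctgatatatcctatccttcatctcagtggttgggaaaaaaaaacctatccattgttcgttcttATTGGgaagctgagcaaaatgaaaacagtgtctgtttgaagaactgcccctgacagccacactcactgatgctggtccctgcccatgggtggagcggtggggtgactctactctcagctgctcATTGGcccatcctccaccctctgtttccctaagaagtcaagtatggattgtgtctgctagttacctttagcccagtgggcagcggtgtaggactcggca

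Cpt1a, the malonyl-CoA-sensitive gate of the pathway at the outer membrane, was at 116, 176 and 130 TPM in vehicle and 107, 118 and 126 TPM in TCS. The highest value was that of vehicle replicate 2, and the groups overlapped. Its log2 fold change was -0.24 ± 0.16 (SE, adjusted p = 0.383 by limma), with a 95% interval from -0.63 to 0.14, and was -0.07 without vehicle replicate 2. Cpt2, the inner-membrane partner that returns the acyl chain to CoA, was at 45.0, 59.5 and 43.4 TPM in vehicle and 60.1, 69.9 and 77.5 TPM in TCS. TCS replicate 1 lay just above vehicle replicate 2, so the groups did not overlap, and the log2 fold change was 0.49 ± 0.15 (SE, adjusted p = 0.142 by limma). The ratio of Cpt2 to Cpt1a within a sample does not change when a sample is rescaled by a single factor. That ratio was 0.388, 0.338 and 0.334 in vehicle and 0.562, 0.592 and 0.615 in TCS. The vehicle samples, replicate 2 included, spanned a narrow range, and every TCS value lay above it by more than the spread within either group. The mean ratio was 0.353 ± 0.030 in vehicle and 0.590 ± 0.027 in TCS (SD, n = 3 each), a 1.67-fold difference with an exact two-sided permutation p of 0.1, the smallest that 3 against 3 samples can give. Slc25a20, the translocase between them, was at 60.7, 90.8 and 57.4 TPM in vehicle and 83.2, 88.1 and 97.9 TPM in TCS, and overlapped only through vehicle replicate 2. Set against Cpt1a, a ratio chosen after its values were seen, Slc25a20 went from 0.494 ± 0.045 to 0.767 ± 0.018 (SD, n = 3 each).

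**Figure D2:**
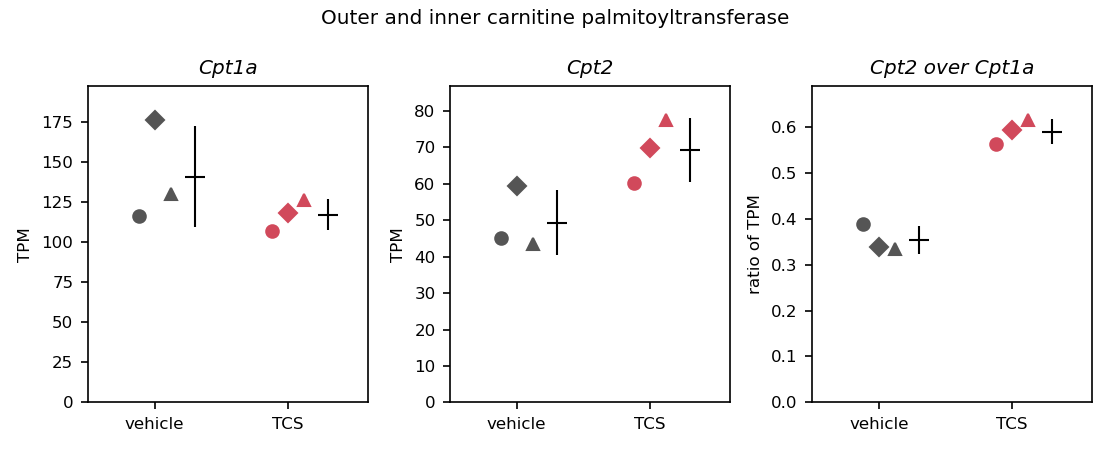
TPM of Cpt1a (left) and Cpt2 (middle) and the ratio of Cpt2 to Cpt1a (right) in each sample, with y axes from 0; symbol shapes give replicates 1 (circle), 2 (diamond) and 3 (triangle), and the black bar beside each group is the mean and SD of 3 samples. The ratios are 0.334 to 0.388 in vehicle and 0.562 to 0.615 in TCS.

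The promoter windows of both transferases are shown for this contrast, with the same motifs in capitals. The Cpt1a window (chr19:3323051-3323350, plus strand) held AGGTCA, written TGACCT on the strand shown, and CCAAT. The Cpt2 window (chr4:107923540-107923839, minus strand) held none of the 3 motifs.
Cpt1a: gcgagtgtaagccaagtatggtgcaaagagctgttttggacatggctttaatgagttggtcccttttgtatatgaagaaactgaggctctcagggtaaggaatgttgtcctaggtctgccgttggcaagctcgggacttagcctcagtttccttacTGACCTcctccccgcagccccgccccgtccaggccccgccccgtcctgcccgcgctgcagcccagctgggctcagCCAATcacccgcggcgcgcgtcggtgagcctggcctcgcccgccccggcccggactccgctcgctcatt
Cpt2: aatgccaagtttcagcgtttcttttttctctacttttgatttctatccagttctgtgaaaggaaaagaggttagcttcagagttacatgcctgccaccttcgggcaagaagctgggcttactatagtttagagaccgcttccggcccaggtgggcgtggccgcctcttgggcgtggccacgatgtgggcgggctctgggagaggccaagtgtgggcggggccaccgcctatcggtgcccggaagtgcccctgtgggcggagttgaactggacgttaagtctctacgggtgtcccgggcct

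Mlycd, malonyl-CoA decarboxylase, which removes the inhibitor of CPT1A, was at 34.3, 40.1 and 36.9 TPM in vehicle and 41.0, 45.4 and 45.2 TPM in TCS. The groups did not overlap, with a log2 fold change of 0.24 ± 0.08 (SE, adjusted p = 0.174 by limma). Of the 30 genes, 7 (23.3%) had every TCS sample above every vehicle sample, against 25.1% of all genes tested, and 1 (3.33%) had every TCS sample below, against 4.61%.

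The acyl-CoA dehydrogenases, which open each round of oxidation for chains of different lengths, had a median log2 fold change of 0.23, the same as all 30 genes to that precision. Acadvl, for very long chains and the most abundant of them over all samples, was at 253, 307 and 245 TPM in vehicle and 278, 316 and 351 TPM in TCS. The groups overlapped through vehicle replicate 2, and the log2 fold change was 0.23 ± 0.12 (SE, adjusted p = 0.294 by limma). The other dehydrogenases, Acadl for long, Acadm for medium and Acads for short chains, Acadsb for short branched chains and the family member Acad11, had log2 fold changes from 0.12 to 0.31. Of the 6 dehydrogenases 0 reached an unadjusted p under 0.05, where 19.5% of all genes tested did so as higher and 3.5% as lower. Acadm showed how far vehicle replicate 2 weighed: it was at 243, 336 and 241 TPM in vehicle and 276, 300 and 309 TPM in TCS. Its log2 fold change was 0.13 ± 0.14 (SE) with all samples and 0.28 ± 0.07 (SE) without that sample, and -0.03 after median-of-ratios rescaling. All 6 dehydrogenases had every TCS sample above vehicle replicates 1 and 3, as had 24 of the 30 genes (80.0%) and 32.7% of all genes tested. That count left vehicle replicate 2 aside after its values were seen. It was the highest vehicle sample for 29 of the 30 genes, but for 33.2% of all genes. The choice itself thus favours the 30, and the contrast cannot be read as a result about them. With all samples, 23.3% of the 30 and 25.1% of all genes had every TCS sample above every vehicle sample.

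The trifunctional protein, whose alpha and beta chains carry out the later steps for long chains, is encoded by Hadha and Hadhb. Hadhb was at 161, 203 and 164 TPM in vehicle and 187, 232 and 250 TPM in TCS, and Hadha at 146, 216 and 160 TPM and 186, 231 and 246 TPM. Both overlapped between the groups at vehicle replicate 2 and TCS replicate 1. Their log2 fold changes were 0.34 ± 0.14 for Hadhb and 0.35 ± 0.17 for Hadha (SE, adjusted p of 0.216 and 0.267 by limma). The ratio of Hadhb to Hadha was 1.02 ± 0.08 in vehicle and 1.01 ± 0.01 in TCS (SD, n = 3 each; exact two-sided permutation p = 0.7). The subunit genes lie head to head on chromosome 5, with RefSeq starts 273 bases apart, Hadha on the minus strand at 30154980 and Hadhb on the plus strand at 30155253. Their promoter windows share 228 bases, printed in capitals within the Hadhb window (chr5:30155003-30155302, GRCm38.p6, plus strand), because the pair had nearly equal fold changes.
Hadhb: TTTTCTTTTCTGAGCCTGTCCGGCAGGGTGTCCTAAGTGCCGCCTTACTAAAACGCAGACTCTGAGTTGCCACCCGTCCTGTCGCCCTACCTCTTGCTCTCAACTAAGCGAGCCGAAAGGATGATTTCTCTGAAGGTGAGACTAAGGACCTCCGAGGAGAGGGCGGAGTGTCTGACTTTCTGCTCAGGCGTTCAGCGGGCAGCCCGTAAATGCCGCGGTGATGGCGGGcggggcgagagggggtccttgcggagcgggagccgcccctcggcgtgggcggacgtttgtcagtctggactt

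Of the other enzymes of the spiral, Acaa2, the thiolase that cuts off acetyl-CoA, was the most abundant of all 30 genes. It was at 646, 807 and 668 TPM in vehicle and 766, 841 and 834 TPM in TCS, with a log2 fold change of 0.21 ± 0.10 (SE, adjusted p = 0.263 by limma). Here too vehicle replicate 2 lay within the TCS range, and without it the log2 fold change was 0.31. Hadh, the hydroxyacyl-CoA dehydrogenase for shorter chains, and Echs1, the short-chain hydratase, had log2 fold changes of 0.18 and 0.12. Echs1 shares 142 exonic bases with Paox on the other strand, listed at up to 71.4 TPM, and its value was -0.03 after median-of-ratios rescaling.

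The 2 auxiliary enzymes listed had a median log2 fold change of 0.53, against 0.21 for the 5 genes of the later steps of the spiral. Decr1, the dienoyl-CoA reductase needed for polyunsaturated chains, was at 64.3, 94.6 and 63.6 TPM in vehicle and 101, 122 and 129 TPM in TCS. Every TCS sample was above every vehicle sample, with a 1.58-fold higher mean and a log2 fold change of 0.67 ± 0.18 (SE, unadjusted p = 0.00774, adjusted p = 0.117 by limma). Without vehicle replicate 2 its log2 fold change was 0.86 ± 0.12 (SE), with an adjusted p of 0.0713, the lowest over the single-sample omissions, which reached up to 0.294. Eci1, the enoyl-CoA isomerase for unsaturated chains, was at 104, 136 and 104 TPM in vehicle and 129, 162 and 156 TPM in TCS. Vehicle replicate 2 lay above TCS replicate 1, and the log2 fold change was 0.38 ± 0.14 (SE, adjusted p = 0.181 by limma). Eci2, another enoyl-CoA isomerase, was listed with the other mitochondrial oxidation enzymes. It was at 321, 446 and 297 TPM in vehicle and 316, 325 and 359 TPM in TCS. Its log2 fold change was -0.07 ± 0.16 (SE), so the median of the 2 auxiliary genes does not stand for all such enzymes.

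In TPM, which is per length, the flavoprotein genes ranked just below Acaa2, with Etfb and Etfa the next most abundant of the 30, and Pdk4 was the lowest. The electron-transferring flavoprotein takes electrons from the dehydrogenases to ubiquinone through its oxidoreductase, ETFDH. Etfdh was at 146, 176 and 153 TPM in vehicle and 174, 212 and 231 TPM in TCS, and Etfb, the beta subunit, was at 458, 525 and 435 TPM and 511, 576 and 618 TPM. In both, TCS replicate 1 lay below vehicle replicate 2 and above the other vehicle samples. The log2 fold changes were 0.37 ± 0.13 for Etfdh and 0.27 ± 0.10 for Etfb (SE, adjusted p of 0.164 and 0.199 by limma). Etfa, the alpha subunit, had a log2 fold change of 0.14 ± 0.09 (SE), with TCS replicate 1 the lowest of all 6 samples at 449 TPM. The ratio of Etfb to Etfa was 1.02 ± 0.07 in vehicle and 1.11 ± 0.03 in TCS (SD, n = 3 each; exact two-sided permutation p = 0.2).

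**Figure D3:**
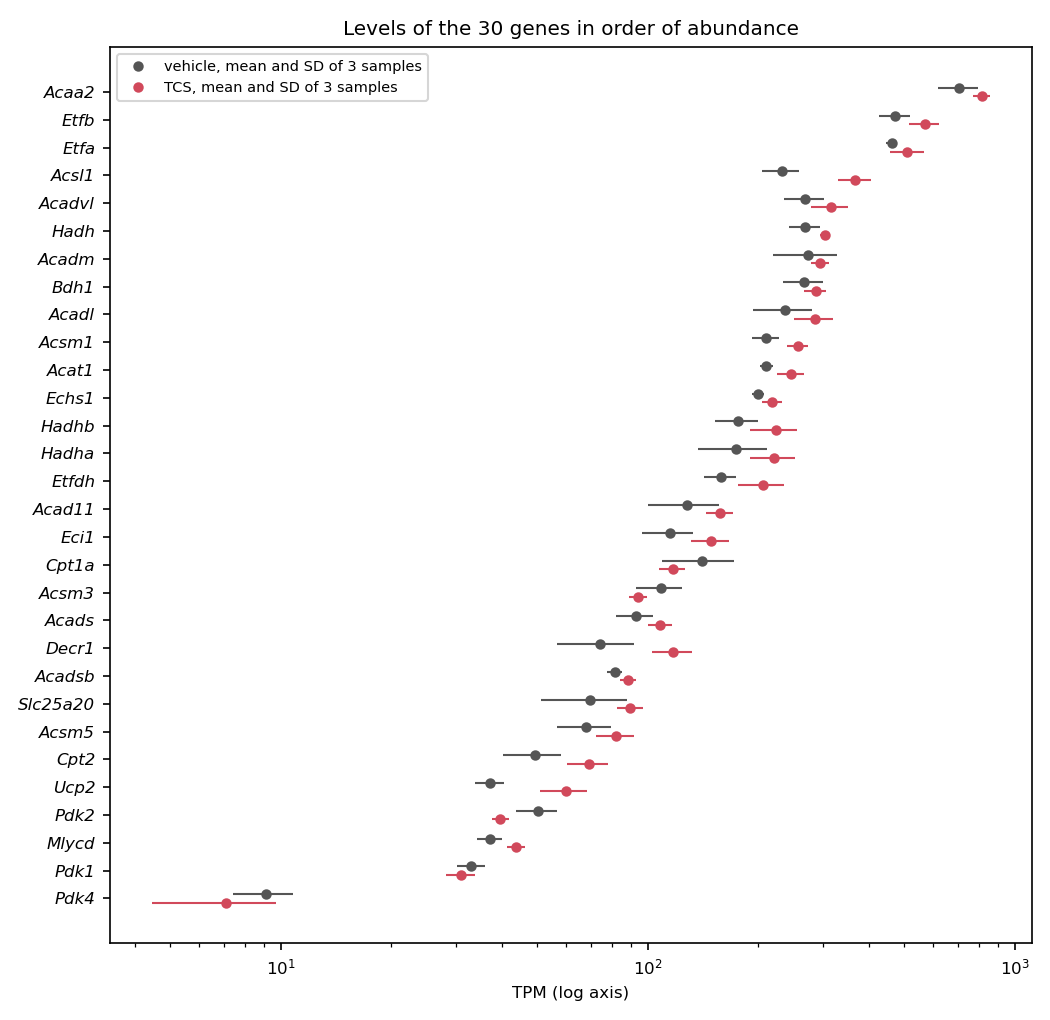
Mean TPM of each gene (x axis, log scale) in vehicle (grey) and TCS (red), with bars for the SD of 3 samples, ordered by the mean over all samples. The levels run from 9.11 TPM in vehicle for Pdk4 to 814 TPM in TCS for Acaa2.

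Of the ketone body enzymes, 1 of 2 was higher at an unadjusted p under 0.05, against 19.5% of all genes tested. Acat1, acetoacetyl-CoA thiolase, was at 206, 221 and 205 TPM in vehicle and 224, 249 and 265 TPM in TCS. The groups did not overlap, though by a narrow margin, and the log2 fold change was 0.22 ± 0.08 (SE, adjusted p = 0.182 by limma). Bdh1, which reduces acetoacetate to beta-hydroxybutyrate, was at 236, 301 and 264 TPM in vehicle and 267, 288 and 306 TPM in TCS. The groups overlapped, and its log2 fold change of 0.11 ± 0.10 (SE) had a 95% interval from -0.14 to 0.36. In the wider list of ketone synthesis, use and export, 0 of 9 genes passed the threshold. At an unadjusted p under 0.05, 4 of 9 in that list were higher, against 19.5% of all genes tested. The smallest p values in it were those of Slc16a1, a monocarboxylate transporter that carries ketone bodies (14.8, 14 and 16.2 TPM in vehicle, 20.9, 25.7 and 29.6 TPM in TCS), and Bdh2 (3.26, 3.44 and 3.60 TPM, against 5.52, 5.14 and 4.76 TPM).

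The pyruvate dehydrogenase kinases, which hold back glucose oxidation when fat is burned, include the 1 gene of the 30 that was lower at an unadjusted p under 0.05, Pdk2. It is the most abundant Pdk transcript in these samples and was at 50.6, 56.4 and 43.7 TPM in vehicle and 37.2, 40.8 and 41.1 TPM in TCS. Every TCS sample lay below every vehicle sample, the only gene of the 30 with that order, with a log2 fold change of -0.33 ± 0.11 (SE, unadjusted p = 0.0197, adjusted p = 0.155 by limma). Pdk4, a kinase that PPARα is known to raise in fasting, was at 8.93, 10.9 and 7.49 TPM in vehicle and 4.85, 6.42 and 10 TPM in TCS. TCS replicate 3 lay within the vehicle range, and the log2 fold change was -0.36 ± 0.25 (SE, adjusted p = 0.409 by limma). Pdk1 had a log2 fold change of -0.09 ± 0.10 (SE). Ucp2, an inner-membrane carrier named for uncoupling, was the gene of this group with a higher mean in TCS, at 33.7, 40.4 and 37.3 TPM in vehicle and 51.3, 59.2 and 68.7 TPM in TCS. The groups did not overlap, and its mean was 1.61-fold higher with a log2 fold change of 0.67 ± 0.12 (SE, unadjusted p = 0.00135, adjusted p = 0.0866 by limma). Macrophages are known to hold much of the Ucp2 of normal liver, and their part in the Ucp2 difference was not tested. Of the 10 Kupffer cell and macrophage markers 6 were higher and 4 lower on average, with a median log2 fold change of 0.10. Of these markers 0 passed the threshold and 0 reached an unadjusted p under 0.05, where 19.5% of all genes did so as higher and 3.5% as lower.

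**Figure D4:**
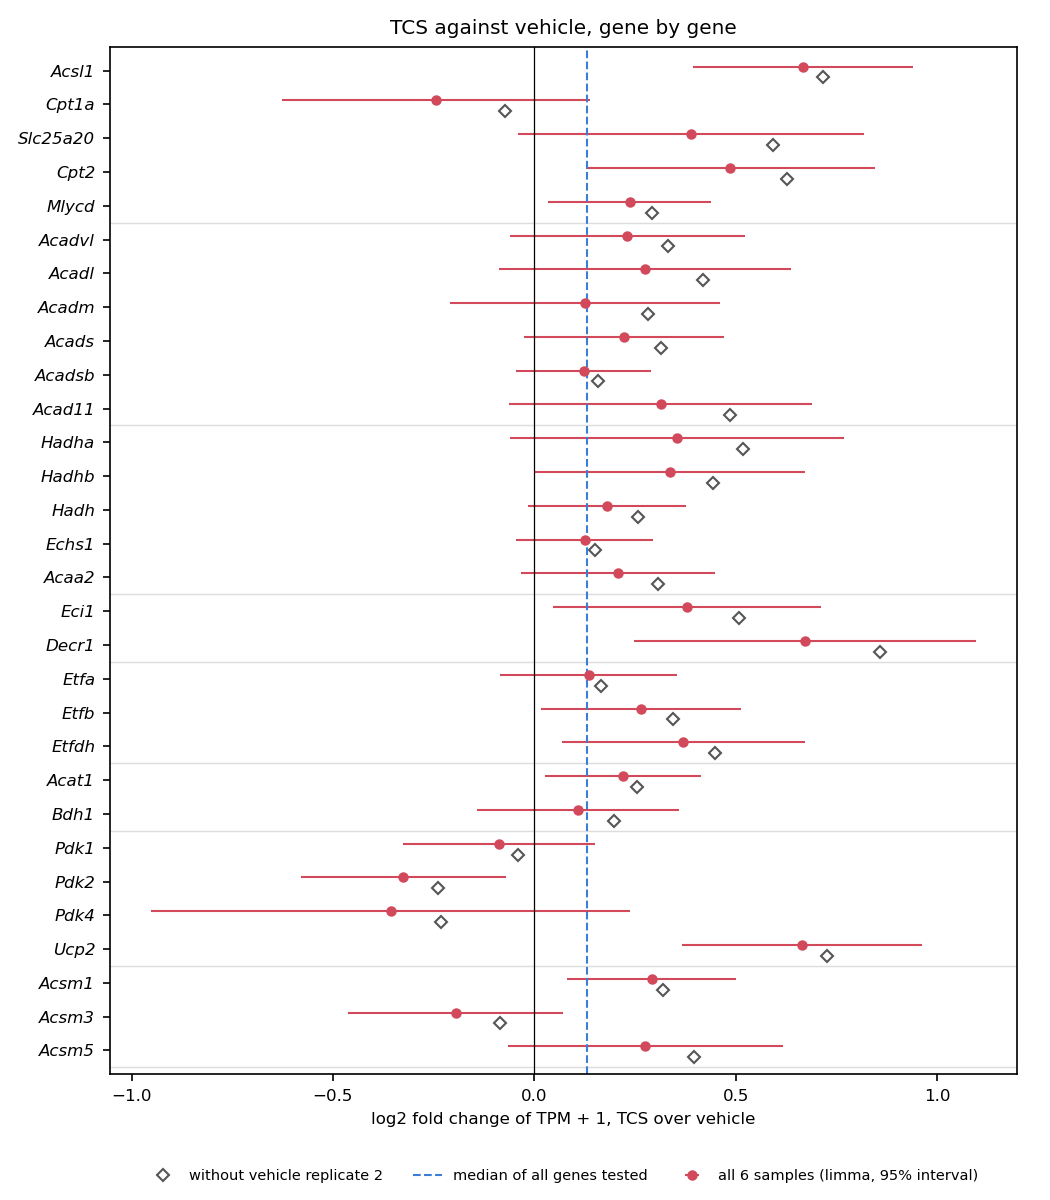
Log2 fold change of TPM + 1, TCS over vehicle (x axis), for each gene: red points with 95% intervals from limma use all 6 samples, and open diamonds leave out vehicle replicate 2; the dashed line is the median of all genes tested, 0.13. Acsl1, Decr1 and Ucp2 stand at 0.67, and Cpt1a, Acsm3 and the kinase genes lie left of 0.

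Medium-chain acyl-CoA synthetases, which activate shorter fatty acids inside the mitochondrion, differed among themselves in direction. Acsm1 was at 190, 218 and 222 TPM in vehicle and 241, 255 and 275 TPM in TCS. The groups did not overlap, and this was the one gene of the 30 for which vehicle replicate 2 was not the highest vehicle sample. Its log2 fold change was 0.29 ± 0.09 (SE, adjusted p = 0.137 by limma). Acsm3, also on chromosome 7, had a log2 fold change of -0.20 ± 0.11 (SE), and Acsm5, on the same chromosome, 0.28 ± 0.14 (SE). The groups overlapped in both.

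Of the 30 genes, 19 are known PPARα targets in mouse liver, by general knowledge of the field. Their median log2 fold change was 0.27, and that of the other 11 was 0.12, close to the 0.13 of all genes. The other 11 were Acadsb, Acad11, Echs1, Etfa, Acat1, Bdh1, Pdk1, Pdk2, Acsm1, Acsm3 and Acsm5. Of the 19, 17 were higher on average and 2 lower, namely Cpt1a (-0.24) and Pdk4 (-0.36). Of the other 11, 8 were higher and 3 lower, where 74.8% and 25.2% of all genes were. Omission of vehicle replicate 2, the highest vehicle sample for most of the 30 genes, gave medians of 0.42 and 0.16. After median-of-ratios rescaling of all samples the medians were 0.12 and -0.03. In the promoter windows found for 27 of the 30 genes (31 windows), AGGTCA occurred in 5 windows (16.1%), against 16.3% of all 32851 windows. CCAAT occurred in 13 (41.9%, against 37.4%) and CACGTG in 2 (6.45%, against 7.15%), those of Acsm5 and Pdk2.

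The surrounding pathway gave the setting of these values. In a list of known PPARα targets outside mitochondrial oxidation, the median log2 fold change was 0.55. Of the 23 genes tested in it, 1 passed the threshold as higher, where 0.0826% of all genes did. That gene was Cd36, a fatty acid uptake receptor, at 21.5, 23.1 and 19.8 TPM in vehicle and 36.4, 38.8 and 42.1 TPM in TCS, which rose by 0.84 ± 0.09 on the log2 scale (SE, adjusted p = 0.0384 by limma). The call ended with the omission of any single sample, replicates 1, 2 and 3 of either group alike (adjusted p from 0.0504 to 0.169 by limma), and under median-of-ratios rescaling (0.0583). Among other acyl-CoA synthetases and transporters 0 of 8 passed and 6 were higher at an unadjusted p under 0.05, against 19.5% of all genes tested. The smallest p values belonged to Acsl3 (10.8, 8.63 and 13.1 TPM in vehicle, 21.4, 24.9 and 28.9 TPM in TCS, adjusted p = 0.0625 by limma) and Acsl4 (27.5, 25.7 and 28.6 TPM, against 36.3, 35.9 and 39.8 TPM, adjusted p = 0.0847). Like Acsl1, these long-chain synthetases kept every TCS sample above every vehicle sample. The carboxylases Acaca and Acacb make malonyl-CoA, the inhibitor of CPT1A, and Mcat uses it in mitochondrial fatty acid synthesis. Of these genes 3 of 3 were higher at an unadjusted p under 0.05, against 19.5% of all genes tested, with 0 past the threshold. Mcat had a log2 fold change of 0.25 ± 0.08 (SE). Acacb, the acetyl-CoA carboxylase of the mitochondrial surface, was at 6.18, 8.14 and 8.34 TPM in vehicle and 9.88, 16.1 and 16.5 TPM in TCS (log2 fold change 0.80 ± 0.21, SE, adjusted p = 0.118 by limma).

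Other lists lay nearer the median of all genes or below it. Other mitochondrial oxidation enzymes had a median log2 fold change of 0.02 over 16 genes, the smallest p values being those of Acad9 (0.38 ± 0.11, SE) and Hibch (0.30 ± 0.10, SE). Other carnitine genes had a median of 0.18 over 7, led by Aldh9a1 (0.43 ± 0.13, SE) and Crat (0.65 ± 0.23, SE). The pyruvate dehydrogenase complex had a median of 0.10 over 10, led by Pdhx (0.39 ± 0.08, SE) and Pdp1 (0.41 ± 0.16, SE). Receptors and coregulators had a median of -0.04 over 18 genes, with 0 past the threshold. At an unadjusted p under 0.05, 4 of 18 were lower and 2 higher, against 3.5% and 19.5% of all genes tested. Ppargc1a, a coactivator of oxidation genes, was at 13.5, 17.2 and 8.97 TPM in vehicle and 3.94, 4.56 and 4.76 TPM in TCS (log2 fold change -1.35 ± 0.22, SE, adjusted p = 0.0795 by limma). Lpin1, a phosphatidate phosphatase that also acts as a coactivator, was at 150, 203 and 137 TPM and 26.2, 41.5 and 55.4 TPM (-2.01 ± 0.28, SE, adjusted p = 0.0576). In both genes every TCS sample lay below every vehicle sample. Ppara itself had a log2 fold change of -0.10 ± 0.13 (SE).

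**Figure D5:**
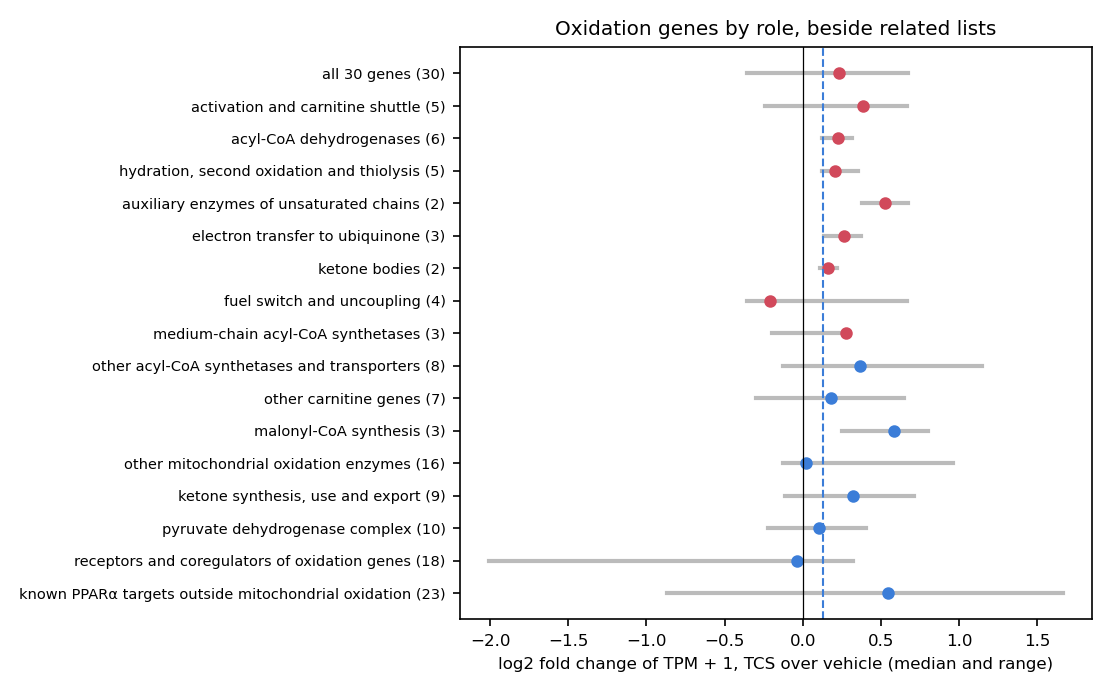
Median (point) and range (grey bar) of the log2 fold changes, TCS over vehicle (x axis), for the 30 genes and their roles (red) and for related gene lists (blue), with the number of genes tested in brackets; the dashed line is the median of all genes tested. The auxiliary enzymes stand at 0.53 and the fuel switch group at -0.21, beside 0.23 for all 30 genes.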

How the data were processed

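Liver RNA was measured in 6 pooled samples, 3 vehicle and 3 TCS. Base calls came from bcl2fastq 2.17.1.14, and STAR 2.2.0c placed the reads on mm10, where the authors kept unique placements. Their methods describe HOMER values per RefSeq exon as FPKM, whereas the table the authors deposited holds TPM per Ensembl gene, rounded to 3 significant digits; the step between is not given in the sources used here. TPM sums to a fixed total, so the read depth is unknown, no counting error is given, and a rise in some genes lowers others. Strand use in making the TPM is not stated. The deposited sheet of the authors' own fold changes and adjusted p-values was not used. Columns name the group and a number that matches no single sample label, so numbers are the table's own. They were not used to pair samples in the main fit.

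A gene was tested if 3 or more samples held 1 TPM or more; log2(TPM + 1) was fitted in limma 3.58.1 (R 4.3.3, moderated test with trend), with Benjamini-Hochberg adjustment over 13325 genes and a threshold of 0.05. Fold changes on this scale understate those of low genes. The methods give a minimum of 2 independent litters for each treatment group but not how litters were divided among the pools, so p-values measure the spread between these samples. Every gene was accounted for. Values in every sample are given for genes with an unadjusted p under 0.05 or an absolute log2 fold change of at least 0.4, for Cpt1a and for the most abundant gene of each role; from each related list, genes past the threshold or otherwise up to 2 with the smallest p are named. Hadha, Acadm, Slc25a20 and Pdk4, and Eci2 from a related list, were added after seeing their values. The genes and lists were chosen with earlier results of these data known. Promoter windows came from RefSeq (GRCm38.p6), coordinates from the GENCODE M21 annotation of GRCm38. The fit was tested on simulated data. Alternatives were an unfiltered table, a filter at 5 TPM, a pseudocount of 0.1, median-of-ratios and quantile scaling, removal of mitochondrially encoded genes, no trend, array weights, a replicate block and each sample left out. A fit with log2(Xist TPM + 1) as a covariate was added after seeing the data.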

Additional observations from a re-analysis of the deposited data

How the results depend on the processing

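Over the alternatives, 466 of the single-gene results kept their direction and their side of the threshold. With array weights 8 genes passed as higher (Acsl1, Acsm1, Cpt2, Decr1, Eci1, Etfdh, Mlycd and Ucp2), where 7.55% of all genes passed as higher and 1240 genes passed in all. After median-of-ratios rescaling the log2 fold changes of Acadm (-0.0269), Acadsb (-0.0291), Echs1 (-0.0277), Etfa (-0.0177) and Bdh1 (-0.0439) changed sign, and under quantile normalization that of Acadsb did (-0.00229); the cause was not tested. At an unadjusted p under 0.05, the higher genes numbered 3 with median-of-ratios (8.31% of all genes), 5 with quantile normalization (8.71%) and 21 with array weights (28.6%). When single samples were left out they numbered 4 to 21, and the share of all genes ran from 11.9% to 21.8%. Those ranges do not match end to end. The 21 came without vehicle replicate 2 (15.6% of all genes), and the 21.8% without TCS replicate 1 (15 of 30). In the same order of settings, the lower genes numbered 4 (8.97%), 4 (8.28%) and 1 (5.15%). When single samples were left out they numbered 0 to 2, and the share of all genes ran from 2.77% to 3.44%. With Xist as a covariate they numbered 2 (3.63%). The summed difference of 960.0 TPM was 319 TPM with median-of-ratios and 728 to 1318 TPM when single samples were left out, and the median log2 fold change of the 30 genes ran from 0.19 to 0.32 over those omissions. Genes past the threshold by limma numbered 23 over all genes, 59 with the filter at 5 TPM, 4 with Xist as a covariate and 0 to 29 when single samples were left out. Without a filter 0 passed, with 3123 higher and 714 lower at an unadjusted p under 0.05; leaving out TCS replicate 3 also gave 0, with 1580 and 453.

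No label states whether column numbers pair samples. Deviations of same-numbered samples from their group means had correlations of -0.0096, -0.25 and -0.07 across genes. Those of differently numbered samples ran from -0.13 to 0.21. With 3 samples a group, these values cannot settle whether the numbers pair samples. With the replicate block 0 of 30 genes and 0 of all genes passed the threshold by limma, and 11 of the 30 were higher and 1 lower at an unadjusted p under 0.05, beside 2622 and 448 of all genes. The block also ended the call of Cd36 (adjusted p = 0.109 by limma). With Xist as a covariate 0 of the 30 passed, 9 were higher at an unadjusted p under 0.05 (21.4% of all genes), and the median of the 30 was 0.24. The read depth is unknown, so what it limits cannot be stated, and the pools number 3 a group.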
